A study of Saccharomyces cerevisiae with 12 samples.

Results

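The 10 genes described here encode enzymes of ergosterol biosynthesis in Saccharomyces cerevisiae: ERG10 (YPL028W), HMG1 (YML075C), ERG9 (YHR190W), ERG1 (YGR175C), ERG11 (YHR007C), ERG25 (YGR060W), ERG6 (YML008C), ERG2 (YMR202W), ERG3 (YLR056W) and ERG5 (YMR015C). They were chosen by name from the pathway, 10 of the 7127 features in the count tables, and all 10 passed the filter on low counts that left 6354 genes to test. Their expression was measured by RNA sequencing in 4 groups of 3 libraries. WT cells, whose histone H3 genes HHT1 and HHT2 are intact, were grown in YPGal (galactose medium) or moved from it to YPD (glucose medium). H3i cells (strain DGS200.1, made from YEF473A) lack HHT1 and carry HHT2 under the galactose-driven GAL1 promoter, so that YPGal keeps H3 transcription on and YPD shuts it off. All groups were first cultured in YPGal at 30°C; the sources used here do not give how long cells stayed in YPD. The WT samples are labelled YEF4734A, a spelling that differs from the YEF473A of the protocol. No second isolate of H3i is described.

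Ergosterol is the main sterol of fungal membranes, where it takes the place that cholesterol has in animal cells. Its synthesis runs from acetyl-CoA through mevalonate to isoprenoid units, joins these to squalene, and then oxidises, demethylates and desaturates the ring system of lanosterol to give ergosterol. In budding yeast the transcription factors Upc2 and Ecm22 bind sterol regulatory elements in many of these promoters and raise transcription when sterol is scarce. Several oxidative steps need molecular oxygen and haem, and the pathway is the target of azole, allylamine and morpholine antifungals.

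The libraries differed by replicate number. Replicates 1 and 2 were extracted with MagMax and replicate 3 with Trizol and glass beads, and a different version of the TruSeq Stranded mRNA kit was used for replicate 3. Replicate 1 was the shallowest, with 2176277 to 2525223 counts on genes per library. Replicate 3 had 8649749 to 11628815 and replicate 2, the deepest, 40950610 to 52278567. HHT1 was read at 634 to 1329 counts per 1000000 gene counts (CPM) in WT and at no more than 3.34 CPM in H3i. HHT2 in H3i was at 2284 to 4353 CPM in YPGal and 14.7 to 30.3 CPM in YPD. For these H3 genes, genotype and shut-off thus matched the labels in all 12 libraries. The WT libraries of replicate 3 stood apart: they alone held reads of HIS3 and TRP1, held none of LEU2 and URA3, and read MF(ALPHA)1 at 2325 to 2464 CPM against 0 to 105 CPM in the other 10, with MFA1 at 1.30 to 1.97 CPM against 69.6 to 173. These WT libraries thus differ from the other 4 of WT and from H3i in mating-type and marker genes, although they carry the same strain label. In replicate 3, H3i against WT therefore includes this difference as well. Whether another strain was used was not tested, and calls that end without these 2 libraries are named with the results.

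Part of the members was nearly missing from replicate 2. ERG1, ERG11, ERG6 and ERG5 had under 0.1 of their mean level of replicates 1 and 3 in all 4 groups of replicate 2. ERG11, for example, was there at 3.62 CPM (YPGal) and 0.746 CPM (YPD) in WT and at 0.446 and 1.12 CPM in H3i, against group means of 758 to 1688 CPM in the other replicates. HMG1 was lost in the same way in 3 groups and stood at 31.4 CPM in H3i YPD, 0.130 of its level in the other replicates. ERG10, ERG9, ERG25, ERG2 and ERG3 were read in every group of replicate 2. The members shared this pattern with the genome: of genes at 50 CPM or more in replicates 1 and 3, replicate 2 had lost 45.9% (YPGal) and 41.4% (YPD) in WT, and 46.8% and 21.8% in H3i. Comparisons were therefore fitted on replicates 1 and 3 (8 libraries, 2 per group), with a term for the replicate number, which is also the kit. Replicate 2 is given separately for the genes it kept. Its ratios are of CPM, without the normalisation (TMM) used for replicates 1 and 3, so the scales differ.

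**Figure D1:**
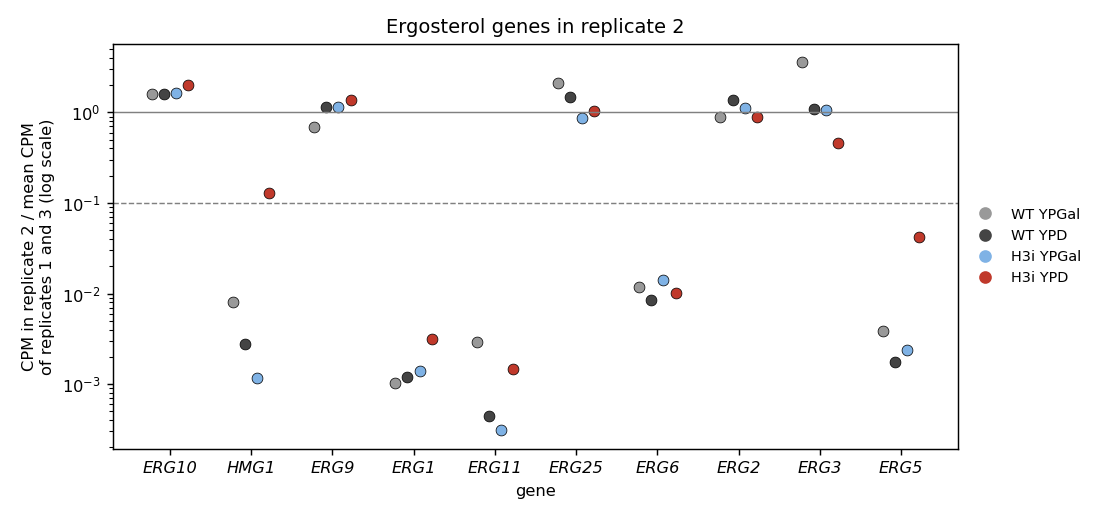
Level of each ergosterol gene in replicate 2 divided by its mean level in replicates 1 and 3 of the same group (log axis); each point is a group, the solid line marks equal levels and the dashed line 0.1 of them. ERG1, ERG11, ERG6 and ERG5 lie under the dashed line in all 4 groups and HMG1 in 3, while ERG10, ERG9, ERG25, ERG2 and ERG3 lie between 0.458 and 3.57.

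The promoters of 5 members are shown because they hold, or do not hold, the sterol regulatory element within 250 bases of the start codon, which is set beside their fold changes later. Each sequence runs from 250 bases before the start codon to 50 bases after its first base, 5′ to 3′ on the gene's strand, read from the RefSeq genome of build R64, which is that of sacCer3; it is the reference strain's sequence, not that of the strains used. Capitals mark the element, TCGTATA or TCGTTTA, on either strand. ERG10 (chrXVI:497846-498145, plus strand) holds it 237 bases before the start codon, ERG9 (chrVIII:484595-484894, plus) at 139 bases on the opposite strand, and ERG2 (chrXIII:667287-667586, plus) at 185 bases. ERG11 (chrVIII:121634-121933, minus) and ERG6 (chrXIII:252941-253240, minus) have no match in these windows.
ERG10: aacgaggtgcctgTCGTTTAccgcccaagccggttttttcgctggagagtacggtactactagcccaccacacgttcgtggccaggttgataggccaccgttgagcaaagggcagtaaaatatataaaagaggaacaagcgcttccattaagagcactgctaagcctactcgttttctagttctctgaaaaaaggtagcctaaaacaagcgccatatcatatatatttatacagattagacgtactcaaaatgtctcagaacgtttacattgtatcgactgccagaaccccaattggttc
ERG9: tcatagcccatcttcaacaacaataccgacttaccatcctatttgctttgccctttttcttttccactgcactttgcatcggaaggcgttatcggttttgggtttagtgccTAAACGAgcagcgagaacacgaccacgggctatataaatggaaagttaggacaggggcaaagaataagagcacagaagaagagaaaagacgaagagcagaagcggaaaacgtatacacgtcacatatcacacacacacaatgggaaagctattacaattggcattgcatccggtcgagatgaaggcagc
ERG2: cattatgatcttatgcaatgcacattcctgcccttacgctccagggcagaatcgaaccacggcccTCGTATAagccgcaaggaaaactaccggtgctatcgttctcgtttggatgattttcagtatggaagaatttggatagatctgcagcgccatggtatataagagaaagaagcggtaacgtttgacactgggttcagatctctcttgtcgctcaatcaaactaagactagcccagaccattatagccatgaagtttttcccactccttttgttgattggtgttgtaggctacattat
ERG11: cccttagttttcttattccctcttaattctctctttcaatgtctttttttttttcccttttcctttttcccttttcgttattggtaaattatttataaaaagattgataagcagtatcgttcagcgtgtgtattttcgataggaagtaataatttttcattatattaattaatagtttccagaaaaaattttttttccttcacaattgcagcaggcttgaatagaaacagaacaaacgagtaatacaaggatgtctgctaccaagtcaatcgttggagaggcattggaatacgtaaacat
ERG6: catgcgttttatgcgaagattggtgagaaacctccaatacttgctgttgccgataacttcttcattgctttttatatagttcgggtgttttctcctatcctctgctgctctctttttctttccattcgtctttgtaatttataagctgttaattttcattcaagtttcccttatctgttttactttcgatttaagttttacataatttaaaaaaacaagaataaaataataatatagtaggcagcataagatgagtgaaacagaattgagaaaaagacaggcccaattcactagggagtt

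Over all 6001 promoters of this length 9.38% held an element, against 3 of the 10 members and 9 of the 15 further genes of the pathway. Extending the window to 500 bases before the start codon brought the members to 9 of 10, all but ERG11, against 15.6% of all promoters, so the split between members depends on how near the element lies. A TATA box (TATAAA) was present in 6 members and in 45.2% of all promoters. The core of the Rox1 repressor site (ATTGTTC) was found in ERG1, where it occurs 3 times, and in ERG5, against 7.65% of all promoters. The Rap1 motif was in none of the 10 members and in 1.03% of all promoters. Both Hap1 motifs searched were in none, and were rare throughout, at 0.133% and 0.217%. A run of 10 A bases was in 2 members and 16.3% of promoters. Motifs were searched on both strands, overlapping matches included, and no match says only that these letters are not in the window.

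In WT cells in YPGal the members were well expressed but differed in level per length. On the scale of normalised CPM per kb of coding length, ERG3 was highest at 846 ± 192 (SD, n = 2), followed by ERG11 at 827 ± 30.1 and ERG25 at 822 ± 124. Next came ERG1 at 697 ± 282, ERG10 at 644 ± 264, ERG2 at 582 ± 215 and ERG6 at 573 ± 378. The lowest were ERG9 at 310 ± 64.8, ERG5 at 297 ± 107 and HMG1 at 112 ± 53.0. The ranges of all neighbours in this order overlapped, except that HMG1, the HMG-CoA reductase that sets the pace of the early pathway, lay apart below ERG5. Replicate 1 was above replicate 3 for 8 of the 10 genes, ERG1 and ERG11 being the exceptions.

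**Figure D2:**
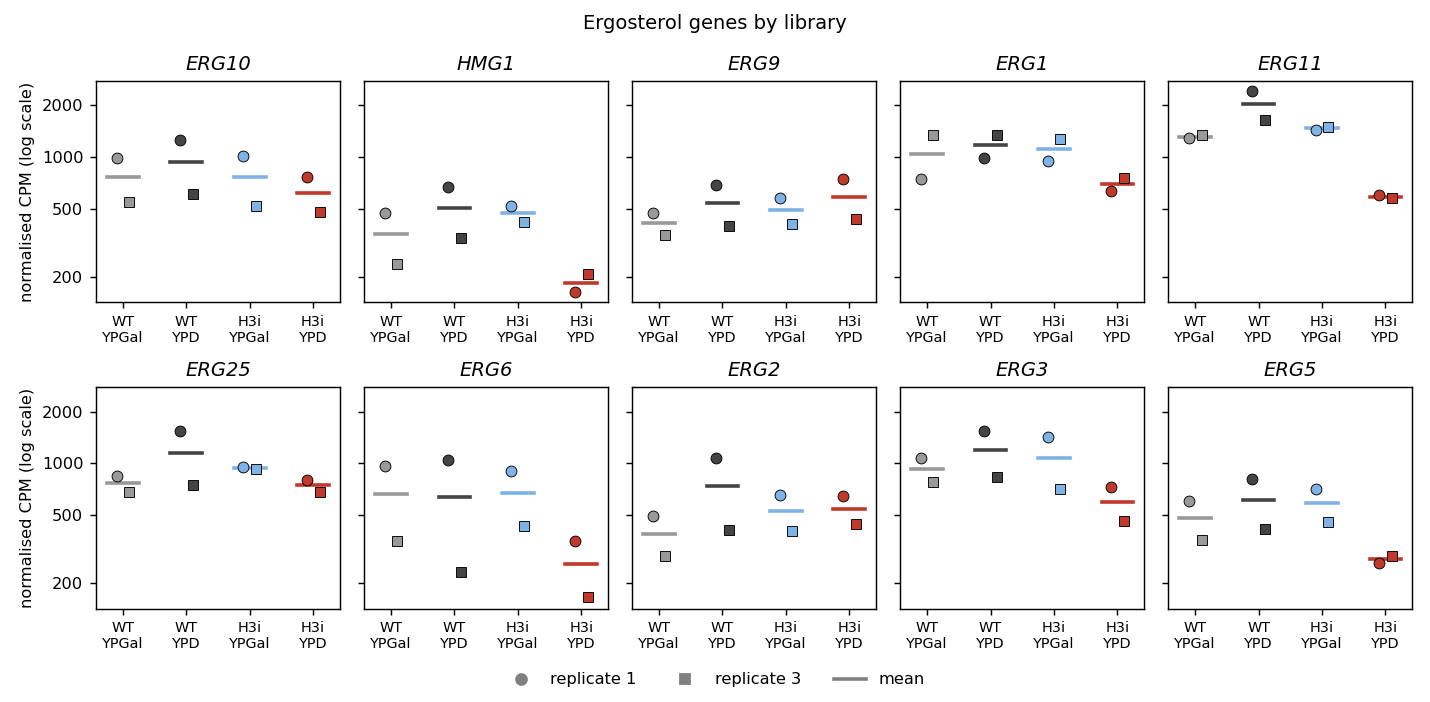
Normalised CPM (log axis) of each ergosterol gene in the 8 libraries of replicates 1 (circles) and 3 (squares), with the mean of each group as a bar. In H3i YPD, HMG1, ERG11 and ERG5 lie below all 6 libraries of the other groups, whereas ERG9 lies above them within each replicate.

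The move from YPGal to YPD in WT asks what the change of carbon source does by itself. No member passed the test, against 0.771% of all genes called either way. The log2 fold changes ran from −0.20 ± 0.33 (SE) for ERG6 to 0.83 ± 0.30 for ERG2, the sterol isomerase (adjusted p = 0.20), with a median of 0.34 over the members and 0.01 over all genes. ERG2 was at 491 and 288 normalised CPM in YPGal and 1068 and 406 in YPD (replicates 1 and 3), higher in YPD in both, and its ratio in replicate 2 was 1.34 (log2); DESeq2 called it at 0.87 (adjusted p = 0.0202). ERG11, the lanosterol demethylase, was at 1284 and 1352 normalised CPM in YPGal and 2424 and 1648 in YPD, a difference of 0.61 ± 0.32 that did not pass the test. 9 members had a value above 0, and the median over the 594 genes in the same range of WT YPGal levels was 0.33.

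H3i against WT in YPGal shows the genotype with H3 transcription on. No member passed, and neither did any of the 6354 genes with edgeR (0% called; 114 genes had an unadjusted p under 0.05, and DESeq2 called 13). The members lay between −0.02 ± 0.26 for ERG10 and 0.46 ± 0.36 for HMG1, with a median of 0.20 against 0.00 over all genes. Without the WT libraries of replicate 3 the members called stayed at 0. HHT1, which H3i lacks, was not called with edgeR either. It was at 998 and 680 normalised CPM in WT and 3.87 and 0.0905 in H3i (replicates 1 and 3). The lack of a call in this comparison therefore does not show equal levels.

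With H3 shut off, 4 members fell and none rose. In H3i, HMG1, ERG11, ERG6 and ERG5 fell by 1.01 to 1.36 on the log2 scale from YPGal to YPD, to between 0.389 and 0.498 of their level in YPGal. Over all genes 22.2% were called lower and 21.4% higher. The median over the 10 members was −0.73, against 0.03 over all genes, and 8 of the 10 values were below 0. These are levels relative to the rest of the RNA in bulk cultures: fewer cells expressing a gene and less RNA per cell cannot be told apart.

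In the early, mevalonate part of the pathway HMG1 was the member that fell. Its level was 518 and 422 normalised CPM in H3i YPGal and 163 and 209 in H3i YPD (replicates 1 and 3). The groups did not overlap, and the WT libraries, at 474 and 237 in YPGal and 667 and 338 in YPD, were all above H3i YPD. The log2 fold change was −1.28 ± 0.37 (edgeR adjusted p = 0.0244), lower in both replicates. ERG10, the acetoacetyl-CoA thiolase that opens the pathway, was at 1013 and 521 in H3i YPGal and 763 and 479 in H3i YPD, with a change of −0.26 ± 0.26 (adjusted p = 0.46). Replicate 2 gave ERG10 a log2 ratio of 0.40 on CPM. On that scale ERG10 was also higher in YPD in replicates 1 and 3, at 911 and 663 CPM against 875 and 574 CPM.

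At the branch into sterols the genes for the squalene steps did not pass. ERG9, squalene synthase, was at 575 and 408 normalised CPM in H3i YPGal and 742 and 434 in H3i YPD, slightly higher in both replicates (0.23 ± 0.25, adjusted p = 0.50) and also in replicate 2 (0.89). It had the highest value of the 10. In WT, ERG9 was likewise higher in YPD in replicate 2, at 510 CPM against 271 CPM in YPGal. ERG1, squalene epoxidase and the target of allylamine drugs, was at 950 and 1268 in YPGal and 632 and 756 in YPD. Its groups did not overlap, yet its change of −0.66 ± 0.29 missed the threshold with edgeR (adjusted p = 0.10), while DESeq2 gave 0.0273.

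Among the genes that act on the sterol ring, ERG11, target of the azole drugs, showed the tightest values. It was at 1439 and 1500.3 normalised CPM in H3i YPGal and at 601 and 577 in H3i YPD. The 2 libraries of H3i YPD agreed closely and lay at 0.400 of the YPGal level (−1.32 ± 0.32, adjusted p = 0.0131). ERG25, a methyl sterol oxidase working after ERG11, was at 948 and 926 in YPGal and 800 and 684 in YPD, a change of −0.35 ± 0.33 that did not pass (adjusted p = 0.42). On CPM, ERG25 was higher in H3i YPD in replicate 2, with a log2 ratio of 0.31. In replicates 1 and 3 it went from 818 and 1020 CPM in YPGal to 955 and 947 CPM in YPD.

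The later enzymes were divided. ERG6, the sterol methyltransferase that adds the methyl group typical of fungal sterols, was at 902 and 432 normalised CPM in H3i YPGal and 353 and 167 in H3i YPD. It fell by nearly the same amount in both replicates, −1.35 and −1.37 (−1.36 ± 0.34 in the fit, adjusted p = 0.0140), although its level in replicate 1 was above that in replicate 3 throughout. ERG5, a desaturase of the side chain, was at 711 and 455 in YPGal and 262 and 289 in YPD (−1.01 ± 0.32, adjusted p = 0.0364). ERG3, a desaturase of the ring, was at 1427 and 708 in YPGal and 724 and 460 in YPD; its change of −0.80 ± 0.29 fell just short (adjusted p = 0.0535; DESeq2 0.0033). In replicate 2 ERG3 had a log2 ratio of −1.65 in H3i, but also −1.56 in WT, where replicates 1 and 3 gave 0.52 and 0.10. ERG2 did not move in either direction beyond its error, at 657 and 403 in YPGal and 641 and 445 in YPD (0.06 ± 0.29).

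The 4 calls in H3i depended on single libraries. ERG11 lost its call when any 1 of the 4 H3i libraries was left out (adjusted p up to 0.0827), HMG1 and ERG5 without H3i YPGal replicate 1, H3i YPD replicate 1 or H3i YPGal replicate 3, and ERG6 without H3i YPD replicate 1 or H3i YPGal replicate 3. With the replicate term dropped no member was called, and over all 12 libraries with a replicate block ERG6 alone was (−1.52, adjusted p = 0.0340); the genes lost from replicate 2 include the 4, so it gives no check of them.

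**Figure D3:**
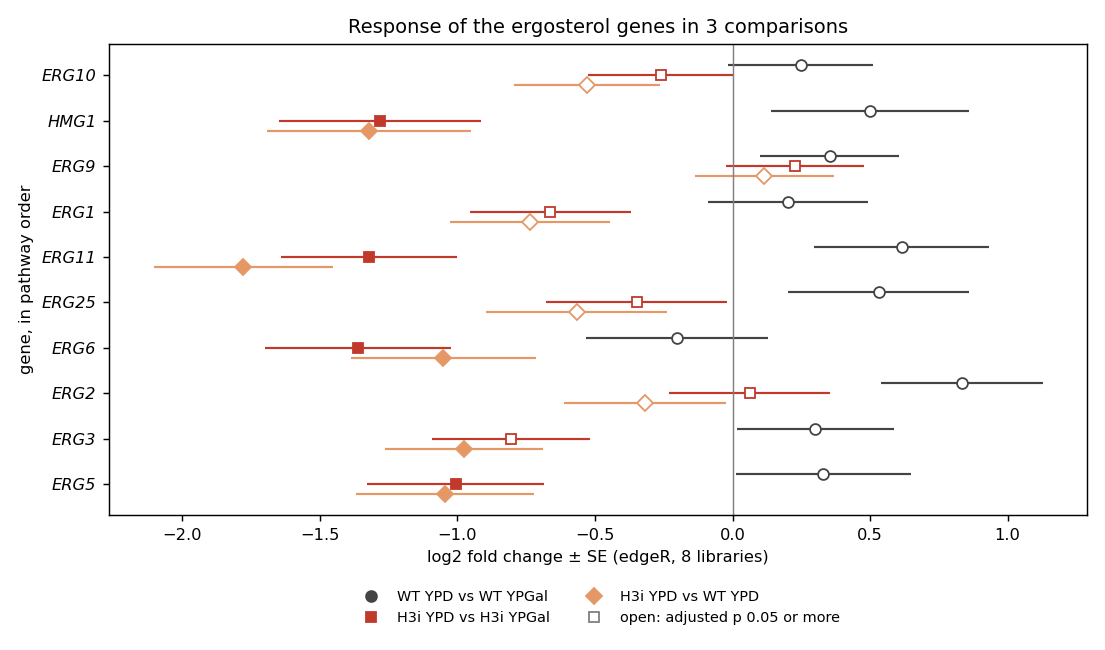
Log2 fold changes ± SE of the 10 ergosterol genes in pathway order, from the fit of 8 libraries, for the change of medium in WT, the same change in H3i, and H3i against WT in YPD; filled symbols had an adjusted p under 0.05. All WT symbols are open, while 4 genes in H3i YPD against YPGal and 5 against WT YPD are filled and lie at −0.98 or below.

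How these falls compare with other genes depends on the level of the genes. In H3i YPD against YPGal, the share of genes called lower differed by their level in WT YPGal: 48.6% of genes at 200 to 400 CPM, 69.4% at 400 to 800 CPM and 72.4% at 800 to 1600 CPM were called lower, and 13.8% at 50 to 100 CPM. Of the 594 genes within the members' own range of 330 to 1251 CPM, 67.5% were called lower and 2.19% higher, with a median of −1.28. Beside these stand 4 of 10 members lower and a median of −0.73, and the 4 that fell had values of −1.01 to −1.36. ERG9 and ERG2, at 389 and 363 CPM in WT YPGal, had values of 0.23 and 0.06 in a bin whose median was −0.74. This background by level was chosen after the values were seen, and no difference between the members and these genes was tested.

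**Figure D4:**
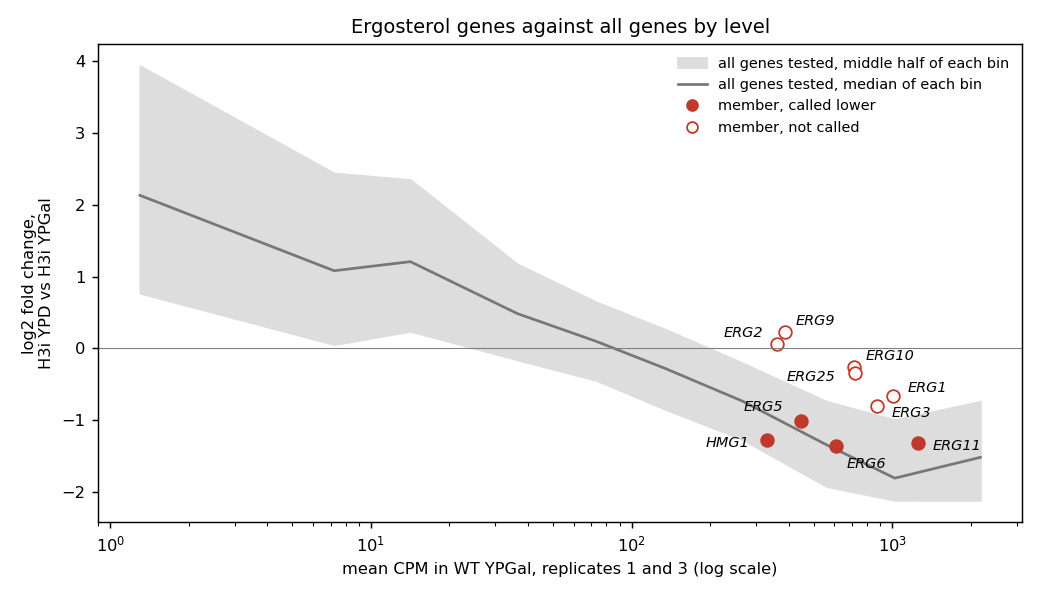
Log2 fold change in H3i YPD against H3i YPGal (vertical axis) by mean CPM in WT YPGal (horizontal log axis); the line is the median and the grey band the middle 50% of all genes tested in each bin of level, both joined between bins, and red points are the ergosterol genes, filled where called lower. ERG5, ERG6 and ERG11 lie within the middle 50% of their bins, HMG1 at −1.28 just under its bin's lower edge of −1.27, and ERG9, ERG2, ERG10, ERG25, ERG1 and ERG3 above theirs.

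Against WT in the same glucose medium 5 members were lower in H3i and none higher. Over all genes 23.7% were called lower and 26% higher, and in the members' range of level 71% lower and 6.06% higher. These values share the H3i YPD libraries with those above. ERG11 had the largest difference, −1.78 ± 0.33 (edgeR adjusted p = 0.00355), to 0.291 of the WT level, and it kept its call whichever of the 8 libraries was left out. HMG1 followed with −1.32 ± 0.37 (adjusted p = 0.0198), then ERG6 with −1.05 ± 0.34 (0.0330), ERG5 with −1.04 ± 0.32 (0.0289) and ERG3 with −0.98 ± 0.29 (0.0243). All 5 were lower in both replicates, but the size differed: HMG1 was at −2.03 in replicate 1 and −0.70 in replicate 3, and ERG6 at −1.56 and −0.47.

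The other members were between −0.74 ± 0.29 for ERG1 (adjusted p = 0.0674) and 0.12 ± 0.25 for ERG9. The median over the 10 was −0.86, and 0.10 over all genes. In replicate 2 the ratios of H3i YPD to WT YPD were −1.62 for ERG3, −0.46 for ERG25, −0.39 for ERG2 and 0.39 for ERG10, and that of ERG9 was above 0. ERG3 was lower in H3i in YPGal too in replicate 2, at 1081 CPM against 3111 CPM in WT. The call of HMG1, ERG6, ERG5 and ERG3 ended without WT YPD replicate 1 and without H3i YPD replicate 1, that of ERG5 and ERG3 also without WT YPD replicate 3, and that of ERG3 also without H3i YPD replicate 3. Leaving out both WT libraries of replicate 3 left 4 members called, with ERG3 lost.

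The difference between the responses of H3i and WT to YPD tests whether the change of medium acts differently once H3 is shut off. It was below 0 for all 10 members, from −0.13 ± 0.36 for ERG9 to −1.94 ± 0.45 for ERG11, with a median of −0.99 against 0.07 over all genes. Over the 594 genes in the members' range of level the median was −1.41. ERG11 (adjusted p = 0.0191) and HMG1 (−1.78 ± 0.51, adjusted p = 0.0375) passed, 2 of 10 where 14.5% of all genes, and 52.7% of those in the members' range of level, were called lower. ERG5 (−1.34 ± 0.45, 0.0618) and ERG3 (−1.11 ± 0.41, 0.0776) were the nearest of the rest. DESeq2 called 6 members, and its share over all genes is not given here. The calls of ERG11 and HMG1 each ended without WT YPD replicate 1, H3i YPGal replicate 1, H3i YPD replicate 1 or H3i YPGal replicate 3, and that of HMG1 also without WT YPGal replicate 3.

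How far the members fell depended on the scaling, and neither scaling gives an absolute level. TMM factors were 1.19 and 1.38 in H3i YPD and 0.735 to 1.10 in the other libraries. With library totals in their place, the median of all genes moved from 0.03 to 0.42 in H3i YPD against YPGal and from 0.10 to 0.70 against WT YPD, and that of the members to −0.33 and −0.25. All calls, 1361 higher and 1408 lower in H3i YPD against YPGal, became 2027 higher and 880 lower. ERG11 (−0.93) and ERG6 (−0.97) then stayed lower in that comparison, and ERG10 (0.14) and ERG25 (0.04) turned above 0 without a call. Against WT YPD, ERG11 (−1.16) stayed lower, ERG9 (0.73) was called higher, and ERG10, ERG25 and ERG2 turned above 0 without a call. Relative to the median of all genes the members were at −0.76 and −0.75 under the 2 scalings in H3i, and at −0.95 and −0.94 against WT YPD.

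Ratios of genes within a library do not depend on scaling, and 3 were computed after the values were seen. The ratio of ERG11 to ERG9 was 1.33 and 0.810 in H3i YPD and 2.50 to 4.13 in the other 6 libraries. ERG6 to ERG9 was 0.386 to 0.476 against 0.582 to 2.04. HMG1 to HMG2, its isozyme, was 1.02 to 1.26 against 1.57 to 7.82. In each ratio the 2 libraries of H3i YPD lay below the other 6. Each ratio sets a gene that fell in H3i over a gene whose fold change there was above 0. A lower ratio in H3i YPD thus follows from the choice of genes and is no separate check. By order of level per length, ERG11 stood at rank 2 in WT YPGal, rank 1 in WT YPD and rank 3 in H3i YPGal, and at rank 7 in H3i YPD, with 370 ± 10.9 normalised CPM per kb. ERG2, at 812 ± 207, and ERG25, at 798 ± 87.9, were then the highest and lay apart from ERG3, the next.

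The other 15 genes of the pathway were also divided in H3i YPD against YPGal, with 1 higher and 5 lower (21.4% and 22.2% of all genes) and a median of −0.16. Most of the 15 lie at 100 to 800 CPM in WT YPGal. Of all genes at 100 to 200, 200 to 400 and 400 to 800 CPM, 31.1%, 48.6% and 69.4% were called lower. In the same bins 11.7%, 3.03% and 1.59% were called higher. The median of the last bin, where IDI1 lies, was −1.34. With library totals 3 of the 15 were higher and 1 lower, beside 2027 of all 6354 genes higher and 880 lower. Their median was then 0.24, against 0.42 over all genes. IDI1, the isomerase that supplies the activated isoprenoid unit, fell most. It was at 547 and 644 normalised CPM in H3i YPGal and 142 and 133 in H3i YPD, a change of −2.12 ± 0.25 (edgeR adjusted p = 0.00185), with WT libraries between 496 and 550. It was read in replicate 2 as well, at 813 CPM in H3i YPGal and 282 in H3i YPD (log2 ratio −1.53), and its call held without each of the 8 libraries. It did not hold in the fit of 12 libraries with a kit term, whose spread includes the loss in replicate 2 (adjusted p = 0.293).

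ERG28, a scaffold of the demethylation complex (−1.33 ± 0.42, adjusted p = 0.0341), ERG4, the reductase of the last step (−1.07 ± 0.29, 0.0191), and ERG24, a sterol reductase after ERG11 (−0.98 ± 0.26, 0.0182), also fell. ERG26, a dehydrogenase of the demethylation complex, was the fifth and the weakest (−0.67 ± 0.23, 0.0467). The call of ERG28 ended without H3i YPD replicate 1 and without H3i YPGal replicate 3, that of ERG24 without either H3i library of replicate 3, and that of ERG4 without H3i YPGal replicate 1 or either H3i YPD library. ERG26 lost its call without any 1 of the 6 libraries other than those of WT YPGal, and without both WT libraries of replicate 3 (adjusted p = 0.0533). MVD1, which makes the isoprenoid unit from mevalonate, was the only gene of the pathway that rose, by 0.95 ± 0.27 (adjusted p = 0.0250). Its levels were 403 and 82.2 normalised CPM in H3i YPGal and 675 and 178 in H3i YPD, so replicate 1 was well above replicate 3 in both media. The call ended without either H3i YPGal library and without H3i YPD replicate 3.

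Against WT YPD, IDI1 (−1.97 ± 0.25, adjusted p = 0.000962), ERG4 (−1.35 ± 0.29, 0.00664) and ERG24 (−1.02 ± 0.26, 0.0142) were lower and MVD1 was higher (0.89 ± 0.27, 0.0278), 4 of 15 against 49.8% of all genes called either way. The call of IDI1 held without each library. That of ERG4 ended without WT YPD replicate 1, that of ERG24 without WT YPD replicate 1 or H3i YPD replicate 3, and that of MVD1 without either H3i YPGal library, WT YPD replicate 3 or H3i YPD replicate 3. Without both WT libraries of replicate 3 MVD1 was at 0.59 and not called (adjusted p = 0.223). In replicate 2 the ratio of MVD1 was −0.55, against 0.44 and 1.36 in replicates 1 and 3, and those of IDI1 and ERG4 were −1.49 and −0.89. For IDI1 (−2.23 ± 0.34, adjusted p = 0.00804) and ERG24 (−1.48 ± 0.37, 0.0233) the responses of H3i and WT differed, ERG24 losing its call without WT YPGal replicate 1, WT YPD replicate 1 or either H3i YPGal library. HMG2, the second HMG-CoA reductase, did not pass in any comparison and was at 0.34 ± 0.29 in H3i YPD against YPGal. In WT and in H3i against WT in YPGal none of the 15 passed.

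**Figure D5:**
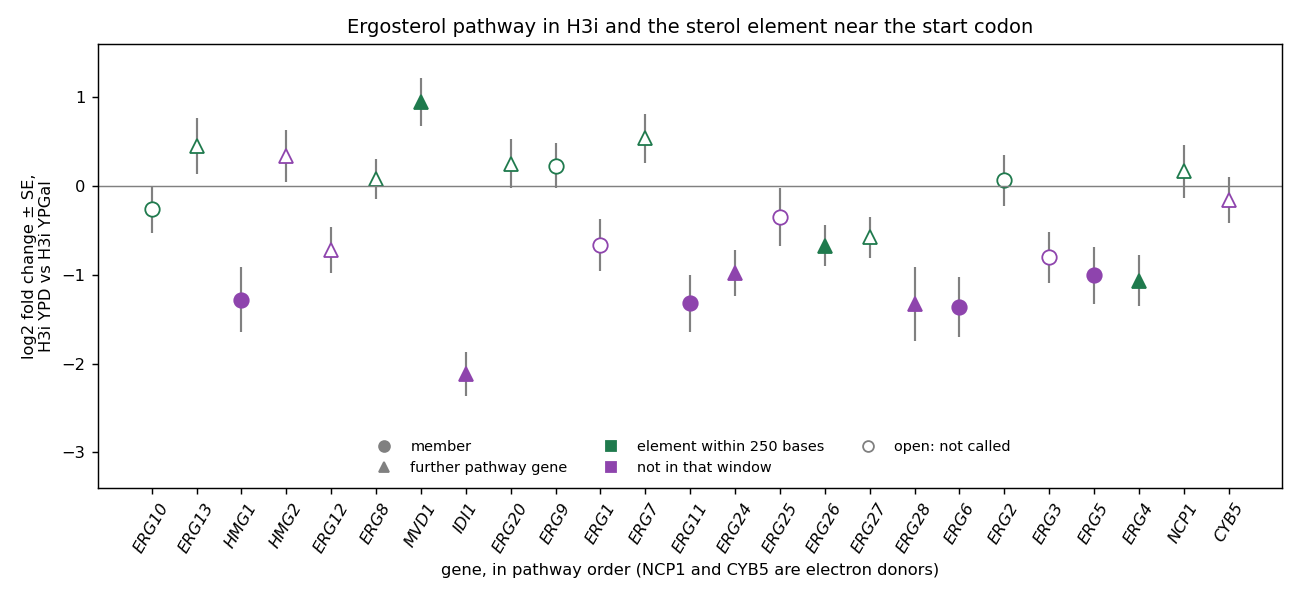
Log2 fold change ± SE in H3i YPD against H3i YPGal for the 25 pathway genes in pathway order; circles are the 10 members, triangles the other 15, filled symbols were called, and green marks a sterol regulatory element within 250 bases of the start codon. Of the 13 genes without the element there, 12 lie below 0, and of the 12 with it, 8 lie above 0.

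The fold changes were set beside the element. ERG10, ERG9 and ERG2, with an element within 250 bases, had a median of 0.06 in H3i YPD against YPGal and none was called; the 7 others had a median of −1.01, none above 0, and hold the 4 that fell and 3 that were not called, ERG1, ERG25 and ERG3. Over the 25 pathway genes, the 12 with the element had a median of 0.12 and 8 values above 0, and the 13 without it a median of −0.98 and 1 value above 0, that of HMG2. Over all genes tested the medians were 0.07 with the element (543 genes) and −0.05 without (5301 genes). The split rests on the window: with 500 bases, 21 of the 25 genes held the element, with a median of −0.35, and 4 did not, with −1.02. Only the shares of promoters with each motif were planned, not this split. The window of 500 bases was added after the values were seen, and no test of the split was made. The split was not matched for level, by which fold changes in H3i differed. In WT YPGal ERG9, ERG2 and ERG10 were at 389, 363 and 716 CPM, and the 7 other members ran from 330 (HMG1) to 1251 (ERG11). ERG4 and ERG26 hold the element within 250 bases and fell.

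Of 6 regulators of the pathway, 1 rose and 1 fell in H3i YPD against YPGal, where 21.4% of all genes were called higher and 22.2% lower. With library totals 2 were higher and none lower, beside 2027 of all 6354 genes higher and 880 lower. MOT3 was then not called (edgeR adjusted p = 0.116). MOT3, a repressor of ergosterol genes and of genes silent in air, fell by 0.99 ± 0.30 (edgeR adjusted p = 0.0307), from 116 and 159 normalised CPM to 58.1 and 80.4. SET1, a histone H3 methyltransferase, rose by 0.88 ± 0.26 (adjusted p = 0.0270), from 123 and 90.9 to 189 and 194. UPC2, the sterol-sensing activator whose own promoter carries its element, was at 42.6 and 53.2 in YPGal and 97.8 and 83.9 in YPD (0.98 ± 0.40, adjusted p = 0.0837). Its paralog ECM22 was at −0.09 ± 0.23, the haem-dependent HAP1 at 0.30 ± 0.27 and the hypoxic repressor ROX1 at 0.17 ± 0.41. Against WT YPD only MOT3 passed among these 6 (−0.92 ± 0.30, adjusted p = 0.0362). MOT3 lost its call in H3i without any 1 of the 4 H3i libraries, and against WT YPD also without WT YPD replicate 1. SET1 lost its call without either H3i YPGal library or H3i YPD replicate 3.

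Genes for taking up sterol from outside, normally low in air, numbered 5, of which 3 were higher in H3i YPD than in H3i YPGal and none lower, with a median of 1.47. Over all genes 21.4% were called higher, and by level in WT YPGal 47.1% of those under 5 CPM, where DAN1 lies, and 29.8% of those at 20 to 50 CPM, where AUS1 lies. AUS1, a sterol importer of the plasma membrane, was at 36.8 and 51.7 normalised CPM in H3i YPGal and 200 and 217 in H3i YPD (2.25 ± 0.22, edgeR adjusted p = 0.00153), and at 44.9 to 69.3 in WT. DAN1, a cell wall mannoprotein of cells without oxygen, went from 0.97 and 0.63 to 46.2 and 48.0 normalised CPM (6.06 ± 0.69, adjusted p = 0.00171); its level in H3i YPGal rests on 2 and 7 counts, so the fold is imprecise. In replicate 2 DAN1 was at 0 CPM in the other 3 groups and at 22.3 CPM in H3i YPD. PDR11, the second importer, was the third gene that rose (1.47 ± 0.27, adjusted p = 0.00496), and its call ended without H3i YPGal replicate 3. The calls of AUS1 and DAN1 held without each library. Over 12 libraries with the kit term all 3 genes lost their calls (DAN1 at edgeR adjusted p = 0.227). With the replicate block over 12 libraries AUS1 and PDR11 lost theirs.

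Among 14 genes of sterol transport within the cell 4 rose and 3 fell, beside 21.4% of all genes higher and 22.2% lower. With library totals 9 were higher and none lower, beside 2027 of all 6354 genes higher and 880 lower. HES1, a sterol-binding protein of the OSH family, rose from 1.45 and 12.7 to 65.5 and 93.2 normalised CPM (4.20 ± 0.86, adjusted p = 0.0071), though its replicates in YPGal differed widely. In replicate 2 it was at 1.68 CPM in H3i YPD and at most 2.03 CPM elsewhere. NCR1, a vacuolar sterol transporter, rose by 1.12 ± 0.21 (0.00538), while the OSH genes KES1 (−1.18 ± 0.31, 0.0176) and OSH7 (−0.92 ± 0.20, 0.00938) fell. Of 7 genes for sterol esters TGL1, a steryl ester hydrolase, alone passed, and 5 of the 7 were higher with library totals (TGL1 1.13 ± 0.26, 0.00978). Without H3i YPGal replicate 3 all 5 of these calls ended, those of HES1, KES1, OSH7 and TGL1 also without H3i YPGal replicate 1, those of KES1 and TGL1 also without H3i YPD replicate 1, and that of KES1 also without H3i YPD replicate 3.

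Other lists held genes that act on or beside the members' enzymes. They are given for H3i YPD against YPGal, where 22.2% of all genes were called lower. Of 4 that control HMG-CoA reductase or Erg11, DAP1, which binds haem and supports Erg11, fell by 1.71 ± 0.29 (adjusted p = 0.00402) and NSG2, which stabilises Hmg2, fell by 1.24 ± 0.26 (0.00731). Of 6 genes on other branches from isoprenoids, RER2, for dolichol synthesis, fell (−1.09 ± 0.25, 0.0111). Fatty acid synthesis gave 5 of 7 lower and none higher, with a median of −1.29. Over all genes 22.2% were called lower, and 72.4% of those at 800 to 1600 CPM in WT YPGal and 67.5% of those above, where 4 of the 7 lie, so the count is near that of genes of like level. OLE1, the only fatty acid desaturase of yeast, was at 2753 and 4980.1 normalised CPM in H3i YPGal and 317 and 528 in H3i YPD (−3.18 ± 0.39, 0.00201). FAS2, a subunit of the fatty acid synthase, fell by 1.54 ± 0.33 (0.00785). The calls of DAP1 and OLE1 held without each library, those of NSG2 and RER2 ended without H3i YPGal replicate 3 and that of FAS2 without H3i YPGal replicate 1. Over 12 libraries all these calls ended with the kit term, and those of DAP1, NSG2 and RER2 also with the replicate block. Against WT YPD 6 of the 7 genes of fatty acid synthesis were lower and none higher. In that comparison 23.7% of all genes, and 71% of those in the members' range of level, were called lower. In replicate 2 OLE1 was read in every group, at 4998 CPM in H3i YPGal and 549.5 in H3i YPD.

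The genes most like the members in their mean profile over the 8 libraries were RAD23, PAN6, HIS7, PRE4 and WWM1. Profiles were log2(CPM + 1), each centred on its own mean, over 4432 genes with a mean of 50 CPM or more and outside the sterol lists. The root mean square difference from the members' mean profile was 0.0539 for RAD23, 0.0987 for PAN6, 0.106 for HIS7, 0.109 for PRE4 and 0.117 for WWM1. The members themselves lay farther from their own mean, from 0.176 for ERG3 to 0.562 for ERG6.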

How the data were processed

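Poly(A) RNA of 12 yeast libraries (4 groups, 3 replicates each) was analysed from read counts per gene, which the authors deposited. According to the submitters' processing notes HISAT2, SAMtools, Picard, FastQC and DESeq2 were used with sacCer3, without versions. The tool for counting, its strand setting and its treatment of reads shared by near copies are not stated in the labels or files used. Entries that name no gene held 22.0% to 74.5% of counts and were left out.

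Counts were fitted in R 4.3.3 with edgeR 4.0.16 (TMM factors, filterByExpr, quasi-likelihood test) on the 8 libraries of replicates 1 and 3, with terms for group and kit. In these libraries the kit term is the replicate block; 3 residual degrees of freedom remained. P-values were adjusted by Benjamini-Hochberg over all 6354 genes, and a gene was called at an adjusted p under 0.05. Alternatives were the 12 libraries with a kit term or a replicate block, no block, DESeq2 1.42.0, library totals, DESeq2 size factors, no filter, only the groups compared, each library left out, and both WT libraries of replicate 3 left out. Same-numbered libraries deviated together (18 pairs, r = 0.367 to 0.817 over 5624 genes), and the labels tie the numbers to the kits. Libraries of replicates 1 and 3 in different groups also deviated together (r = 0.161 to 0.605). Deviations were taken from group means that include replicate 2, so they do not check the replicate term of the 8 libraries. The series design calls the replicates biological; p-values measure their spread after the kit term. A direction was compared between settings where the gene was called in either.

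Normalised CPM uses TMM; CPM of replicate 2 uses gene totals. Counting error is small at the members' levels. Genes were placed by RefSeq locus tag (6047 features), and promoters were read from the RefSeq genome. The script was tested on simulated counts. Named are the 10 members, up to 4 called pathway genes and 2 called genes of each other list per direction, 6 regulators, strain markers and the 5 genes most like the members. PDR11, ERG26, TRP1, LEU2, URA3 and HMG2 were named after their values were seen. Members and lists were chosen with earlier results of these data known.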

Additional observations from a re-analysis of the deposited data

Results flagged for a closer look

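The change from YPGal to YPD differed between H3i and WT, by the test of the difference itself in edgeR, for 13 of the genes named. Over all 6354 genes tested 835 were called higher and 921 (14.5%) lower in this test, so such calls were common outside these genes. Lower in H3i were the log2 differences of ERG11 at −1.94 (adjusted p = 0.0191), HMG1 at −1.78 (0.0375), IDI1 at −2.23 (0.00804), ERG24 at −1.48 (0.0233), OLE1 at −2.57 (0.0130), RER2 at −1.86 (0.0114), KES1 at −1.73 (0.0241) and NSG2 at −1.20 (0.0419). Higher in H3i were AUS1 at 2.06 (0.00798), NCR1 at 1.80 (0.00895), HES1 at 3.76 (0.0423), DAN1 at 4.48 (0.0333) and PDR11 at 1.81 (0.0145). In WT none of these 13 passed the test of the change of medium by itself. Replicate 2 kept ERG11 and HMG1 in no WT library, so it bears on neither. With 1 library left out, IDI1, AUS1 and NCR1 kept their calls in all 8 cases. All 3 lost them over 12 libraries with the kit term (adjusted p = 0.752, 1 and 1) and over 8 libraries with no replicate block (0.0564, 0.0643 and 0.0668), and AUS1 (0.745) and NCR1 (0.791) also over 12 libraries with the replicate block. RER2 lost it without H3i YPGal replicate 3, OLE1 without WT YPD replicate 1 and without H3i YPD replicate 1, and PDR11 without WT YPD replicate 1 and without either H3i YPGal library. DAN1 kept its call only without WT YPGal replicate 1, KES1 only without a WT library of replicate 3, HES1 only without WT YPGal replicate 1 or H3i YPD replicate 3, and NSG2 only without WT YPD replicate 3 or H3i YPD replicate 3. Without both WT libraries of replicate 3, which stand apart from the other WT libraries, OLE1 (−2.33, adjusted p = 0.0788), HES1 (1.72, 0.505) and DAN1 (1.18, 0.920) were not called.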

How the results depend on the processing

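In H3i YPD against YPGal the number of members called, 4 in the main fit, was 0 over 12 libraries with the kit term, 1 with the replicate block over 12 libraries, 0 over 8 libraries with no replicate block and 2 with library totals, and between 0 and 5 when 1 library was left out. The other pathway genes, 6 in the main fit, gave 0, 1 and 1 in those first 3 fits and 2 to 7 with 1 library left out. Against WT YPD the members (5) gave 0, 0 and 1, then 2 with library totals, 3 with only the groups compared and 1 to 6 with 1 library left out; the other genes (4) gave 0, 2 and 1, then 7 with library totals (5 higher, 2 lower) and 2 to 4. For the difference of responses the members (2) gave 0, 0 and 0, then 6 with DESeq2, 1 with library totals and 0 to 3; the other genes (2) gave 0, 1 and 0, then 4 with DESeq2, 4 without the WT libraries of replicate 3 and 1 to 3. In WT DESeq2 called 1 member (ERG2) where edgeR called 0. A direction turned in 15 values, none of them called there, of which 14 under the replicate block over 12 libraries. In H3i YPD against YPGal these were HMG1 (1.55), ERG5 (0.93), ERG24 (0.89), ERG26 (0.76), ERG28 (1.84), NSG2 (1.36) and RER2 (0.11). Against WT YPD they were HMG1 (1.45), ERG5 (0.99), ERG24 (0.81) and MVD1 (−0.33), and in the difference of responses HMG1 (1.38), ERG24 (0.060) and NSG2 (1.56). OSH7 in H3i YPD against YPGal turned to 0.025 over 12 libraries with the kit term. Settings were applied to the 19 genes outside the pathway after their values were seen; the cause was not tested. Of the other values compared, 2668 kept direction and side of the threshold, 300 lost their call and 67 gained one. DESeq2 size factors in edgeR and no filter moved no count of calls by over 1.5 times. With 2 libraries per group, a member that missed the threshold may still differ.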
